A study of Mus musculus with 6 samples.

Results

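Trp53, the mouse gene for the transcription factor p53, and 9 of its target genes were examined in mouse primary renal tubular epithelial cells (TECs) after Sox9 knockdown. The 10 genes were taken by symbol from a table of 30315 genes, and each of them was found there. TECs of C57BL/6 mice received either siSox9, a small interfering RNA (siRNA) against Sox9, or siCon, a negative control siRNA that the sample labels call siNC. Both groups were transfected 12 h before hypoxia/reoxygenation (H/R), in which the cells spent 6 h in glucose-free medium at 1.0% oxygen and then 18 h in complete medium under normal conditions. Each group had 3 libraries, 6 in all. Every library came from cells that had gone through H/R, so the response of these genes to H/R itself was not measured here. The knockdown rested on 1 siRNA, and the labels do not say whether replicates were separate cultures or came from separate animals, so the p-values measure only the spread between these libraries.

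p53 is held at a low level by MDM2, a ubiquitin ligase that marks it for degradation and whose own gene is a p53 target, which closes a feedback loop. DNA damage, hypoxia and other stresses release p53 from this control, and it then switches on genes for cell cycle arrest, DNA repair, altered metabolism and cell death. In the injured kidney tubule, p53 activity is known both for killing tubular cells and for holding survivors in arrest, while tubules regrow by division of surviving cells. Much of this regulation acts on the protein, which RNA sequencing (RNA-Seq) does not measure.

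The values are FPKM, the reads of a gene scaled to the length of its exons in kilobases and to the total reads of the library. The libraries held 23893197 to 25725743 reads, and the 9 member genes whose reads could be recovered as whole numbers had between 553 reads (Bbc3, siSox9 replicate 3) and 18751 reads (Ccng1, siSox9 replicate 1). Sox9, the target of the knockdown, had 8.93, 8.61 and 9.07 FPKM after siSox9, against 25.7, 26.5 and 25.6 FPKM in siCon cells, so that 34.2% of the control level was left. Reads per gene differed more between siCon replicate 1 and the other siCon libraries (mean chi-square of 8.15 and 8.57) than between siCon replicates 2 and 3 (3.02) or within siSox9 (2.01 to 4.64), and values between groups were 26.3 to 29.98. The epithelial markers fixed for TECs, Krt8, Krt18, Epcam, Cdh1, Cdh16, Pax2, Pax8 and Havcr1, summed to 3839 to 4003 FPKM with siSox9 and 3666 to 3875 FPKM with siCon. Most of each sum came from Krt8 and Krt18, with siCon means of 2089 and 1194 FPKM, so it says little of the other markers. Cdh16 and Havcr1 passed as higher in the test described next, and 0 of these markers passed as lower. Of the 5 markers of mature proximal tubule found in the table, only Lrp2 reached a mean of 1 FPKM, and Slc34a1 was listed at 0 in all siCon libraries.

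Of the 10 genes, 6 were higher after siSox9 and 0 were lower in limma's test on log2(FPKM + 1), with a Benjamini-Hochberg adjusted p under 0.05 over the 12009 genes whose mean reached 1 FPKM. Among all genes tested, 30.4% passed this threshold, 12.8% higher and 17.6% lower. Bax, Sesn2, Gdf15, Mdm2, Trp53inp1 and Trp53 rose, by 22.1%, 19.2%, 14.2%, 13.5%, 10.5% and 9.91% of the siCon mean. Pmaip1, Bbc3, Ccng1 and Phlda3 did not pass. At an unadjusted p under 0.05, 6 were higher and 1, Phlda3, was lower. With limma voom on recovered reads, which covered 9 of the 10 genes, 6 were higher and 0 lower. The count was also 6 and 0 after scaling to equal sums (TPM), median-centring and quantile normalization, where 10.2%, 16.3% and 15.1% of all genes tested were higher, and with voom 14.5% were. The median log2 fold change was 0.14 over the 10 genes, with 8 above 0, against -0.01 over all genes tested. No difference was large, and the widest, that of Bax, was 0.28 on the log2 scale. All 10 genes were above the minimum of 1 FPKM in both groups, so none of them was kept only by the group in which it was higher. The list was put together with earlier results of these libraries known, so its share past the threshold is a description.

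**Figure D1:**
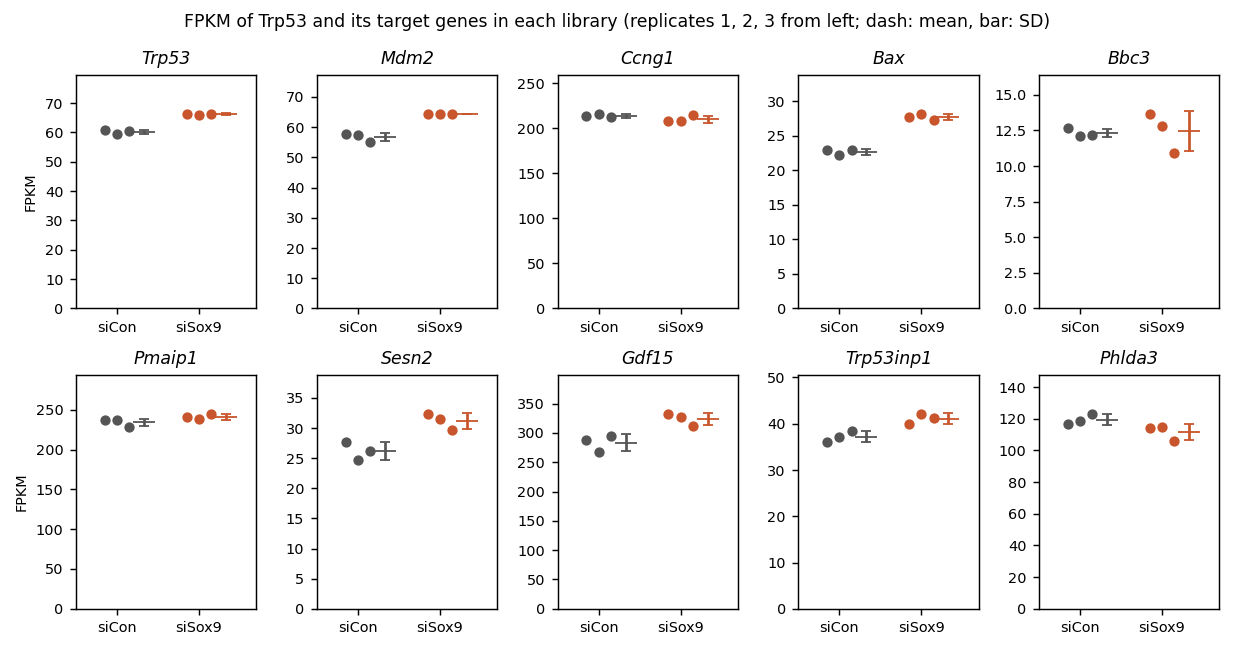
FPKM (vertical axes, each starting at 0) of Trp53 and 9 target genes in the 3 siCon and 3 siSox9 libraries, with replicates 1, 2 and 3 from left to right, the group mean as a dash and the SD as a bar. The siSox9 libraries lie above all siCon libraries for Trp53, Mdm2, Bax, Sesn2, Gdf15, Trp53inp1 and, by a narrow gap, Pmaip1, and below them for Phlda3. For Bbc3 and Ccng1 the ranges of the groups overlap.

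For 7 of the 10 genes the lowest siSox9 library exceeded the highest siCon library, and for 1 gene the order was the opposite. Over all genes tested, groups did not overlap in 46.3%, with siSox9 higher in 20.2% and lower in 26.1%. For a single gene with groups that do not overlap, an exact permutation test (two-sided) cannot go below p = 0.1 with 3 libraries a group, so the adjusted p-values below rest on limma's model. Cells of other types in the cultures were checked by their markers. Fibroblast markers summed to 6.51 to 7.94 FPKM with siSox9 and 8.09 to 9.10 FPKM with siCon, and endothelial markers to 2.91 to 3.10 and 3.22 to 4.12 FPKM. Most of each fibroblast sum came from Col1a1. Leukocyte markers summed to 23.2 to 26.1 FPKM with siSox9 and 23.4 to 24.6 FPKM with siCon. None of the listed genes of these types was at 0 in all libraries. Only 1 fibroblast, 3 leukocyte and 1 endothelial marker reached a mean of 1 FPKM, and 0 of these passed the threshold. Among the markers under 1 FPKM, the endothelial gene Emcn was at 61.4% of the siCon mean and passed as lower in the fit without a filter (limma adjusted p = 0.0331). Pecam1, Col3a1 and Pdgfrb, at 84.3%, 71.4% and 77.4% of the siCon mean, were also lower with groups that did not overlap, and did not pass in that fit. The part of such cells in the results was not tested, and in RNA from whole cultures fewer cells of a type and less RNA per cell cannot be told apart.

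p53 binds DNA through pairs of a short consensus half-site, so the promoters of the genes were searched for that half-site. A lone half-site does not make a gene a target, and p53 sites often lie outside such windows, as in the first intron of Mdm2. RefSeq promoter windows, from 250 bases before to 50 bases after a start site in GRCm38.p6, were at hand for 8 of the genes, in 11 windows. The p53 half-site of 10 bases was found on either strand in 1 window each of 4 genes. The runs below show the strand of the gene with the half-site in capitals and 10 bases on each side.
Trp53: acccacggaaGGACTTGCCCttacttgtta
Mdm2: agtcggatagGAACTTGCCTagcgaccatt
Bax: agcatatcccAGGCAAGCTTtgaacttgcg
Ccng1: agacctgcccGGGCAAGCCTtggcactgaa
The Trp53 run is at chr11:69580274-69580303 on the + strand, and its half-site starts 75 bases before the start site. The Mdm2 run is at chr10:117710925-117710954 on the - strand and its half-site starts 186 bases before the start site, the Bax run at chr7:45467080-45467109 on the - strand with 201 bases, and the Ccng1 run at chr11:40755452-40755481 on the - strand with 185 bases. A half-site was present in 8.36% of all 32851 windows and, per gene, in 9.55% of all 27025 genes with a window, in 8.11% of the genes tested, in 7.71% of those higher after siSox9 and in 8.82% of those lower. Of the 4 genes printed, Trp53, Mdm2 and Bax rose and Ccng1 did not pass, while Sesn2 and Gdf15 rose with no match in their windows. Bbc3 and Phlda3 also had no match, which says only that these letters are not in these windows.

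Trp53 and Mdm2, the core of the p53 loop, both rose. Trp53 (ENSMUSG00000059552, chromosome 11 from 69580359 to 69591873, + strand, positions as in GRCm38) had 66.5, 66.0 and 66.4 FPKM after siSox9, against 60.9, 59.6 and 60.5 FPKM in siCon cells. The siSox9 libraries were almost alike, with an SD of 0.259 FPKM, and each lay above every siCon library. The log2 fold change of Trp53 was 0.13 (standard error 0.03, limma adjusted p = 0.0083). Mdm2 (ENSMUSG00000020184, chromosome 10 from 117688875 to 117710758, - strand) had 64.5, 64.4 and 64.4 FPKM after siSox9, against 57.7, 57.4 and 55.2 FPKM in siCon cells. The groups did not overlap, and siCon replicate 3 was the lowest library. Mdm2 had a log2 fold change of 0.18 (standard error 0.03, limma adjusted p = 0.00401). Both calls held under each of the 14 alternatives, with log2 fold changes of 0.10 to 0.16 for Trp53 and 0.16 to 0.21 for Mdm2.

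As FPKM is per length, the levels of Mdm2 and Trp53 can be set side by side. Within each library the ratio of Mdm2 to Trp53 was 0.971, 0.975 and 0.969 with siSox9 and 0.948, 0.963 and 0.912 with siCon. The ratio moved little (0.972 ± 0.00314 against 0.941 ± 0.026, SD, n = 3 each), but each siSox9 value lay above every siCon value. Over all 6 libraries, the ratio of the transcripts of the ligase and of its target stayed between 0.912 and 0.975. Of the 50-base stretches of the Trp53 transcripts, 3.88% also occur in transcripts of other genes, and of those of Mdm2 1.21%, so a small part of their reads is uncertain.

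Of the 3 cell death genes among the 10, Bax, Bbc3 and Pmaip1, only Bax passed. Bax forms the pores in the outer mitochondrial membrane through which apoptosis proceeds, and PUMA (Bbc3) and NOXA (Pmaip1) are BH3-only proteins that release or activate it. Bax (ENSMUSG00000003873, chromosome 7 from 45461697 to 45466898, - strand) had 27.7, 28.2 and 27.2 FPKM after siSox9, against 23.0, 22.2 and 22.9 FPKM in siCon cells. The gap between the groups was several times the spread within either. The log2 fold change of Bax was 0.28 (standard error 0.03, limma adjusted p = 0.000857), the largest of the 10 genes, and it was 0.26 to 0.31 over the alternatives. Exons of Gm45808 on the same strand cover 12.2% of the Bax exons, so reads there cannot be assigned to 1 gene.

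Bbc3 (ENSMUSG00000002083, chromosome 7 from 16308393 to 16318205, + strand) had 13.7, 12.8 and 10.9 FPKM after siSox9, against 12.6, 12.1 and 12.2 FPKM in siCon cells. The siSox9 libraries spread across all siCon values, with a coefficient of variation of 11.4% against 2.32%. Bbc3 had a log2 fold change of 0.01, with a 95% interval from -0.16 to 0.18 (limma adjusted p = 0.935), so the interval holds changes in either direction, some of them as large as those of Mdm2 or Trp53. Pmaip1 (ENSMUSG00000024521, chromosome 18 from 66458604 to 66465550, + strand) had 240.4, 238.2 and 245.0 FPKM after siSox9, against 237.0, 237.1 and 228.8 FPKM in siCon cells. Its groups did not overlap, but the nearest libraries were only about 1 FPKM apart. For Pmaip1, the log2 fold change was 0.04, with a 95% interval from -0.03 to 0.11 (limma adjusted p = 0.321). The interval leaves out a rise as large as that of Bax.

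The rest of the Bcl2 family moved in both directions. Of 12 further family genes, 10 were tested, 2 were higher, 2 were lower, and the median log2 fold change was 0.11. The share past the threshold was 40%, beside 30.4% over all genes tested, of which 12.8% were higher and 17.6% lower. Bak1, a pore-forming effector like Bax, had 31.0 ± 0.482 FPKM after siSox9, against 26.5 ± 1.34 FPKM in siCon cells (mean ± SD, n = 3 each), a log2 difference of 0.22 (limma adjusted p = 0.0066). Bcl2l1, which encodes the survival protein BCL-XL, was the other gene that rose, with a log2 difference of 0.13 (limma adjusted p = 0.027). Bcl2, the founding survival gene, had 3.82, 3.53 and 3.67 FPKM after siSox9, against 4.32, 4.28 and 4.42 FPKM in siCon cells, a log2 difference of -0.19 (limma adjusted p = 0.0147). That call was lost with FPKM scaled to equal sums and without siSox9 replicate 2 or siCon replicate 3, with an adjusted p of up to 0.0746 from limma. Bok, which had a higher level than Bax or Bak1, fell. It had 51.0 ± 1.15 FPKM after siSox9, against 59.3 ± 0.886 FPKM in siCon cells (mean ± SD, n = 3 each), a log2 difference of -0.21 (limma adjusted p = 0.00224). Exons annotated as Ggnbp1, on the strand opposite to Bak1, cover at most 25.5% of the Bak1 exons. Whether reads there can be assigned to 1 gene depends on whether the libraries kept the strand, which is not given in the sources used here. The count of higher genes was 1 without siSox9 replicate 2, siCon replicate 2 or siCon replicate 3, and that of lower genes was 1 without siSox9 replicate 2 or siCon replicate 3.

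Ratios within a library do not depend on the scaling between libraries. The ratio of Bax to Bcl2 was 7.24, 8.0 and 7.43 with siSox9 and 5.33, 5.18 and 5.18 with siCon. The ratio of Bax to Bcl2l1, a gene with a far higher level than Bcl2, was 0.478, 0.498 and 0.495 with siSox9 and 0.440, 0.444 and 0.435 with siCon. In both ratios the groups did not overlap, with the wider gap for Bcl2. The ratio of Bax to Bbc3 was 2.02, 2.21 and 2.50 with siSox9 and 1.82, 1.83 and 1.88 with siCon, and its spread with siSox9 followed that of Bbc3. These ratios were chosen after the values had been seen and were not tested.

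**Figure D2:**
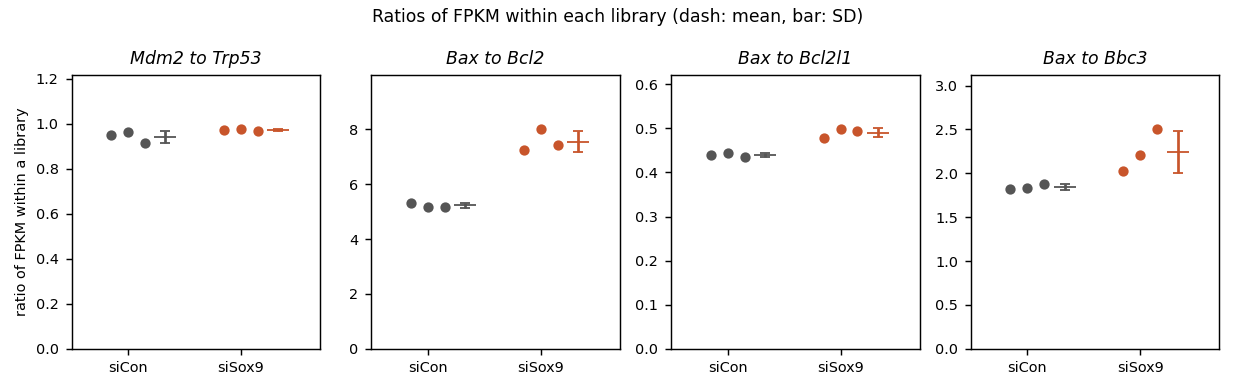
Ratio of FPKM of 2 genes within each library (vertical axes, starting at 0) in the 3 siCon and 3 siSox9 libraries, with the group mean as a dash and the SD as a bar. The ratio of Bax to Bcl2 shows the widest gap, 7.24 to 8.0 with siSox9 against 5.18 to 5.33 with siCon, and the ratio of Mdm2 to Trp53 stays between 0.912 and 0.975.

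Sesn2 and Gdf15 encode stress-response products that p53 shares with other pathways. Sestrin 2 (Sesn2) restrains the growth kinase mTORC1 and supports antioxidant defence, and GDF15 is a secreted cytokine of stressed cells. Sesn2 (ENSMUSG00000028893, chromosome 4 from 132492032 to 132510501, - strand) had 32.4, 31.5 and 29.7 FPKM after siSox9, against 27.6, 24.7 and 26.2 FPKM in siCon cells. Sesn2 had a log2 fold change of 0.25 (standard error 0.05, limma adjusted p = 0.0105), and it passed under each of the 14 alternatives. Gdf15 (ENSMUSG00000038508, chromosome 8 from 70629393 to 70632456, - strand) had 332.7, 326.8 and 312.7 FPKM after siSox9, against 288.0, 268.1 and 294.8 FPKM in siCon cells. For both genes siSox9 replicate 3 was the lowest siSox9 library and still lay above every siCon library. The log2 fold change of Gdf15 was 0.19 (standard error 0.04, limma adjusted p = 0.0166), but the call was lost without a filter on low values (limma adjusted p = 0.0678) and without siSox9 replicate 1 or 2 (adjusted p = 0.0614 and 0.0633).

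Sesn2, Gdf15, Pmaip1 and Bbc3 are also switched on by ATF4, the transcription factor of the integrated stress response, so a list of 16 other genes of that response was read beside them. Of 15 tested, 5 were higher and 2 lower, and the median log2 fold change was 0.01. The share past the threshold was 46.7%, beside 30.4% over all genes tested, of which 12.8% were higher and 17.6% lower. Atf4 itself had 159.1 ± 1.26 FPKM after siSox9, against 157.5 ± 2.87 FPKM in siCon cells (mean ± SD, n = 3 each), a log2 difference of 0.01 (limma adjusted p = 0.731). Nupr1, a stress-induced chromatin protein, had the largest rise, a log2 difference of 0.57 (limma adjusted p = 0.000531), and Phgdh, Slc7a11, Ppp1r15a and Ddit3 also rose. Ddit3 passed only narrowly (limma adjusted p = 0.04998). Shmt2 and Psat1, enzymes of serine and glycine metabolism, fell by 0.74 and 0.41 on the log2 scale (adjusted p = 8.85e-05 and 0.00148 from limma). The difference in the Atf4 transcript was smaller than the SD of the siCon libraries, and ATF4 protein was not measured. The number of higher genes was 3 without siSox9 replicate 2 or 3 or siCon replicate 1 or 3. It was 4 with a pseudocount of 0.1, equal sums per library, the replicate block or limma voom.

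Trp53inp1, Ccng1 and Phlda3 act back on p53 or on survival signalling. TP53INP1 is a nuclear stress protein that promotes p53 activity and autophagy. Trp53inp1 (ENSMUSG00000028211, chromosome 4 from 11156431 to 11174379, + strand) had 39.9, 42.1 and 41.3 FPKM after siSox9, against 36.1, 37.2 and 38.3 FPKM in siCon cells. Trp53inp1 had a log2 fold change of 0.14 (standard error 0.04, limma adjusted p = 0.023). The call was lost without siSox9 replicate 2 (limma adjusted p = 0.09), siSox9 replicate 3 (0.0625) or siCon replicate 2 (0.0592). Cyclin G1 (Ccng1) brings a phosphatase to MDM2. Ccng1 (ENSMUSG00000020326, chromosome 11 from 40748552 to 40755311, - strand) had 207.5, 208.1 and 214.5 FPKM after siSox9, against 213.0, 216.2 and 212.0 FPKM in siCon cells. The groups overlapped, and the log2 fold change of -0.03 had a 95% interval from -0.09 to 0.04 (limma adjusted p = 0.535), which leaves out a rise as large as those of the 6 genes that passed.

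PHLDA3 blocks the membrane recruitment of the survival kinase AKT. Phlda3 (ENSMUSG00000041801, chromosome 1 from 135766119 to 135769136, + strand) had 114.1, 114.9 and 105.8 FPKM after siSox9, against 116.7, 118.6 and 123.1 FPKM in siCon cells. It was the 1 gene of the 10 in which every siSox9 library lay below every siCon library. For Phlda3, the log2 fold change was -0.10 (standard error 0.04, unadjusted p = 0.0474 and limma adjusted p = 0.114), and it did not pass under any of the 14 alternatives. After scaling to equal sums or centring on each library's median, its groups overlapped.

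**Figure D3:**
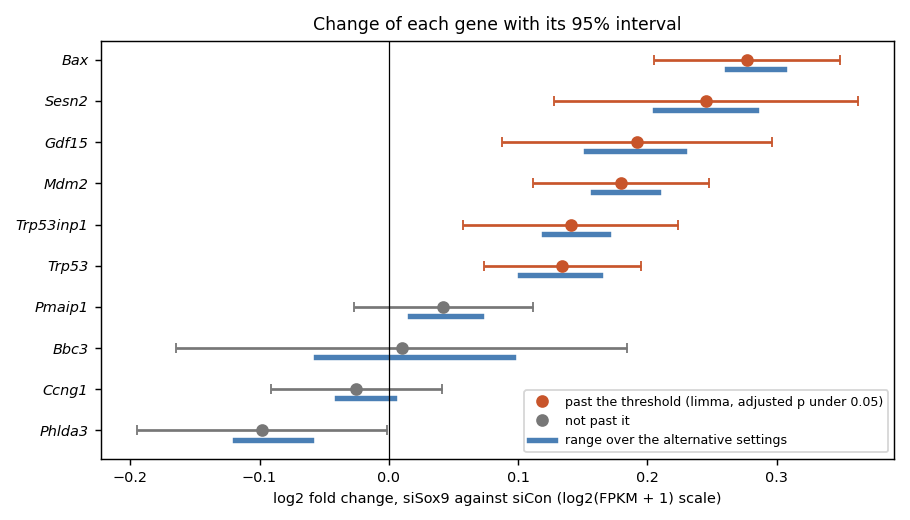
Log2 fold change of the 10 genes after siSox9 against siCon on the log2(FPKM + 1) scale (horizontal axis), with limma's 95% interval as whiskers and the range over the alternative settings as a blue bar. Bax, Sesn2, Gdf15, Mdm2, Trp53inp1 and Trp53 pass the threshold, at 0.13 to 0.28, and the widest interval is that of Bbc3, from -0.16 to 0.18.

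The levels of the 10 genes spanned a wide range, with the same order in both groups. With siCon they ran from Gdf15 (283.7 ± 13.9 FPKM, SD, n = 3) through Pmaip1 (234.3 ± 4.78), Ccng1 (213.7 ± 2.21), Phlda3 (119.5 ± 3.33), Trp53 (60.3 ± 0.673), Mdm2 (56.8 ± 1.36), Trp53inp1 (37.2 ± 1.12), Sesn2 (26.2 ± 1.48) and Bax (22.7 ± 0.45) to Bbc3 (12.3 ± 0.286). No neighbours in this order overlapped over the 3 libraries of a group. The closest were Trp53 and Mdm2, whose means differed by a factor of 1.06 with siCon and 1.03 with siSox9. Gdf15, Pmaip1 and Ccng1 stood at percentiles 99.2, 98.9 and 98.7 of the mean level among the genes tested, and Trp53 at 94.0, so that Bbc3, at 65.6, was the lowest and still above most genes.

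The replicate libraries did not move alike for all 10 genes. SiSox9 replicate 3 was the lowest siSox9 library for 5 of them, Bax, Bbc3, Sesn2, Gdf15 and Phlda3, and the highest for Ccng1 and Pmaip1. SiCon replicate 2 was the lowest siCon library for 5 genes, Trp53, Bax, Bbc3, Sesn2 and Gdf15. Without siSox9 replicate 3, the log2 fold change of Bbc3 was 0.10 (limma adjusted p = 0.167), and without siSox9 replicate 1 it was -0.06. Without siCon replicate 1, the library that differed most from the others of its group, 6 genes were still higher.

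Cdkn1a, which encodes the cell cycle inhibitor p21 and is the best known p53 target outside these 10 genes, had 297.3, 294.2 and 292.0 FPKM after siSox9, against 232.7, 228.3 and 227.9 FPKM in siCon cells. It rose by 0.36 on the log2 scale (standard error 0.03, limma adjusted p = 0.000192), more than any of the 10. A list of 43 further p53 targets, Cdkn1a included, was sorted by role. Of these, 39 were tested, 13 were higher and 6 lower, with a median log2 fold change of 0.02. The share past the threshold was 48.7%, beside 30.4% over all genes tested, of which 12.8% were higher and 17.6% lower. The count of 13 became 8 without a filter. The 6 that were lower became 1 with equal sums per library, 3 without a filter, and 3 without siSox9 replicate 1, 2 or 3 or siCon replicate 3.

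The arrest genes and the secreted products were the roles with rises and no falls. Of 9 arrest genes, 4 were higher and 0 lower, both at the adjusted and at an unadjusted p under 0.05. The share past the adjusted threshold was 44.4%, beside 30.4% over all genes tested. Btg2, an antiproliferative gene, had 114.8, 116.8 and 110.7 FPKM after siSox9, against 67.5, 65.5 and 67.1 FPKM in siCon cells, the largest rise of the list (log2 difference 0.77, limma adjusted p = 4.82e-05). Sfn, which encodes 14-3-3 sigma, and Psrc1 were the other genes that rose, by 0.17 and 0.21 on the log2 scale, and the call of Psrc1 was lost under 5 alternatives. All 5 secreted products were higher, among them Csf1 and Thbs1, while 12.8% of all genes tested were higher. Csf1, a macrophage growth factor, had 160.4 ± 5.84 FPKM after siSox9, against 106.3 ± 3.5 FPKM in siCon cells (mean ± SD, n = 3 each), a log2 difference of 0.59 (limma adjusted p = 0.000128). Thbs1, which encodes the matrix protein thrombospondin 1, had a log2 difference of 0.29 (limma adjusted p = 0.00103), and its call was lost without a filter and with quantile normalization.

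Of 10 death genes tested, 3 were higher and 2 lower, and of 6 repair genes 1 was higher and 1 lower, shares of 50.0% and 33.3% past the threshold beside 30.4% over all genes. Ei24 and Perp, membrane proteins linked to apoptosis, rose by 0.34 and 0.20 on the log2 scale (adjusted p = 0.00223 and 0.00193 from limma), and Aen also rose. Apaf1, the scaffold of the apoptosome, fell by 0.27 (limma adjusted p = 0.00442), as did Eda2r, by 0.20. Among the repair genes, Xpc, which recognises DNA damage, rose by 0.26 (limma adjusted p = 0.00444) and Polh, a translesion polymerase, fell by 0.18 (limma adjusted p = 0.0172). The call of Polh was lost with FPKM scaled to equal sums and without siSox9 replicate 2.

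Among metabolic targets, 0 of 9 were higher, also at an unadjusted p under 0.05, and 3 were lower. The share past the adjusted threshold, 33.3%, was near the 30.4% over all genes tested. Sesn1, the sestrin paralog of Sesn2, had 1.61, 1.55 and 1.66 FPKM after siSox9, against 1.95, 2.07 and 2.14 FPKM in siCon cells. Its log2 fold change was -0.23 (limma adjusted p = 0.0214), opposite in sign to that of Sesn2, and the call was lost under 8 of 13 alternatives, the replicate block included. Aldh4a1 and Ephx1 fell by 0.30 and 0.12 on the log2 scale (adjusted p = 0.0163 and 0.0225 from limma), and their calls were lost under 3 and 6 alternatives.

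**Figure D4:**
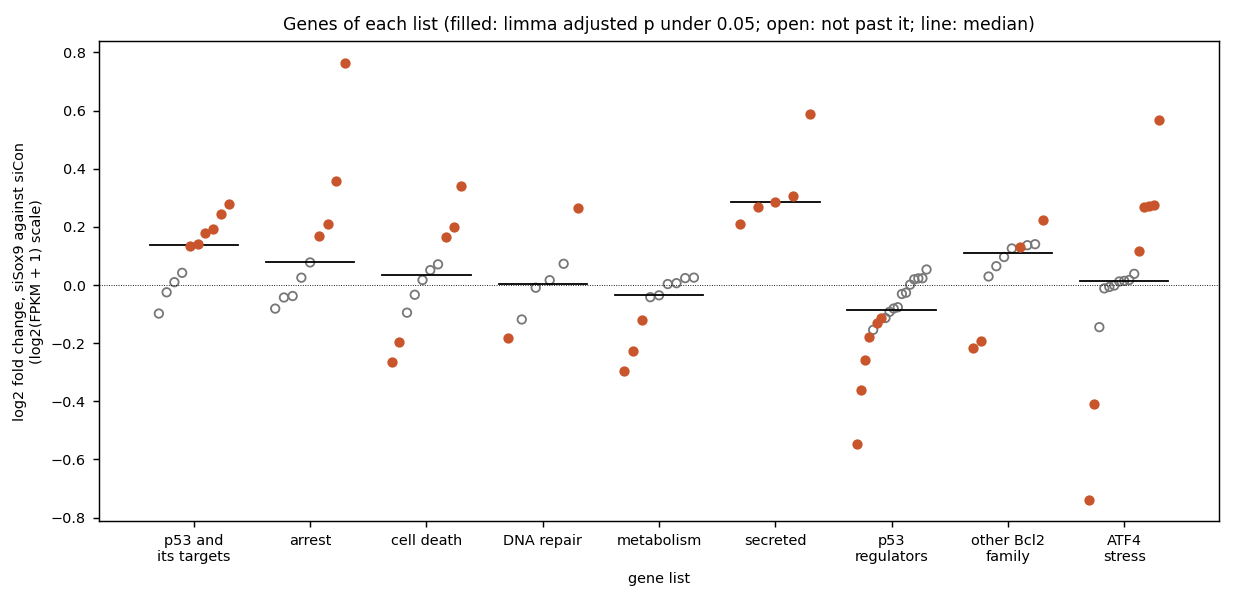
Log2 fold change after siSox9 against siCon on the log2(FPKM + 1) scale (vertical axis) for each gene tested in 9 lists (horizontal axis), filled where limma's adjusted p was under 0.05 and open otherwise, with the list median as a line. The secreted targets lie above 0 throughout, with a median of 0.29, and the p53 regulators lie mostly below it, with a median of -0.09.

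In a separate list of genes that act on p53, no rise passed the test. Mdm2 and Trp53inp1, which also act on p53 and rose, were not in this list. Of 20 listed regulators, 18 were tested, 0 were higher and 6 were lower (also 0 higher at an unadjusted p under 0.05 and with limma voom), with a median log2 fold change of -0.09. The list mixes genes that promote and genes that restrain p53, so its count and median give no direction for p53 activity. The share past the threshold, 33.3%, was near the 30.4% over all genes tested, of which 12.8% were higher and 17.6% lower. Chek2 and Chek1, the checkpoint kinases that phosphorylate p53 after DNA damage, fell most. Chek2 had 3.52, 3.99 and 3.58 FPKM after siSox9, against 5.42, 5.89 and 6.28 FPKM in siCon cells, a log2 difference of -0.55 (limma adjusted p = 0.000967). Chek1 fell by 0.36 and Hipk2, another p53 kinase, by 0.26 on the log2 scale (adjusted p = 0.0114 and 0.00383 from limma). Sirt1, Trp53bp1 and Usp7 were the others that fell, with adjusted p from 0.0334 to 0.0488. These 3 were the less certain calls, as 3 regulators in place of 6 passed with the replicate block, with median-centred values and without siSox9 replicate 1, 2 or 3 or siCon replicate 2. Mdm4, the partner of Mdm2, had a log2 difference of 0.02 (limma adjusted p = 0.621), and Cdkn2a, which encodes the MDM2 inhibitor ARF, also had 0.02 (adjusted p = 0.846). Trp63 and Trp73, the relatives of p53, were under 1 FPKM, with means of at most 0.1 and 0.0198 FPKM.

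When p53 and p21 are active, the DREAM complex represses genes of cell division. All 18 such genes listed were tested and lower, with a median log2 fold change of -0.63. On the log2(FPKM + 1) scale Cdc20, Plk1 and Ccnb2 fell most, and they were at 52.9%, 53.2% and 55.6% of the siCon mean. By that percent Cdc25c, a gene of lower level, was the lowest, at 49.9%. Over all genes tested, 17.6% were lower. Whether p53, p21 or the DREAM complex had a part in these falls was not tested. Nor was the part of the lower division transcripts in the other results.

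The deposited table also annotates genes to biological processes, and 169 genes carried a term that names p53, among them 7 of the 10 genes. Of the 107 tested, 13 were higher and 23 lower, with a median log2 fold change of -0.03. This annotation was looked up after the table had been opened. Over all genes tested, 1532 (12.8%) were higher and 2118 (17.6%) lower. With median-centred values that split of all genes was 1959 higher and 1765 lower, while 6 of the 10 genes were higher and 0 lower under either scaling.

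The genes whose pattern over the 6 libraries was most like that of Trp53 were Msln, Plekhs1 and Llgl2, with Pearson's r of log2(FPKM + 1) of 0.999 each. Msln had 80.6, 78.9 and 79.8 FPKM after siSox9, against 50.6, 44.6 and 47.8 FPKM in siCon cells, a log2 fold change of 0.73. These values describe 6 libraries that share 2 groups, and most of each r comes from the difference between the groups.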

How the data were processed

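RNA-Seq was analysed from 6 TEC libraries, 3 per siRNA. The authors deposited a single FPKM table with 1 value for each gene in each library, which carries no further scaling. The submitters' processing notes name Bowtie2 2.2.3, HISAT2 2.1.0, TopHat2 and mm9 with no role given, and the counting tool is not given in the sources used here. Of 30246 genes found in GENCODE M21, 93.3% have the same position there, in GRCm38, so positions are given in GRCm38. Library columns were matched to samples by siRNA and replicate number, with the siSox9 columns named for an siRNA other than the control.

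Differences on the log2(FPKM + 1) scale were tested by limma 3.58.1 (R 4.3.3; lmFit, then eBayes with its trend option). Genes entered where their mean reached 1 FPKM, with Benjamini-Hochberg adjustment over all genes tested and no replicate block. The study's methods name an unpaired test for 2 groups in general and state no test for the RNA-Seq. A fold change on this scale understates that of low genes. Reads were recovered from FPKM with GENCODE M21 exon lengths, and 27949 genes gave whole numbers, to within 0.02 reads, in every library. The fits were tested on simulated data. Alternatives were a pseudocount of 0.1, no filter, a minimum of 5 FPKM, equal sums per library (TPM), median-centring, quantile normalization, a replicate block, leaving out each library, and limma voom on recovered reads.

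The 10 genes and the gene lists were chosen with earlier results of these data known. Named genes are the 10, Sox9, Cdkn1a, and the 3 largest changes past the threshold with groups that do not overlap in each list, of which 1 is not reported here. Further genes named where a list had 5 or fewer others, such as Sfn, Aen, Sirt1 and Atf4, were chosen after their values were seen, and so was Cdc25c. Summaries and figures were made in Python 3.11.15 with numpy 2.4.6, pandas 2.3.3 and matplotlib 3.10.9.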

Additional observations from a re-analysis of the deposited data

How the results depend on the processing

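The count of 6 higher and 0 lower genes among the 10 was 6 and 0 with the replicate block and under every scaling, 5 without a filter, and 4 to 6 when 1 library was left out, the lowest without siSox9 replicate 2. Samples with the same number did not deviate together (correlations of 0.065, -0.05 and 0.0078), so no pairing was assumed. With the block, the number of genes past the threshold over all genes was 3262 in place of 3650. The log2 fold change of Ccng1 was 0.0042 with equal sums and 0.0015 with median-centred values, and that of Bbc3 was -0.056, -0.01 and -0.00054 without siSox9 replicate 1, siSox9 replicate 2 and siCon replicate 2, and at most 0.096 (without siSox9 replicate 3). The number of genes lower without overlap was 0 with equal sums or median-centred values and 1 to 2 with 1 library left out (2 without siSox9 replicate 3). Of the 6 lower p53 regulators, 3 passed without a filter, with equal sums, with median-centred values and with the replicate block, and 3 to 5 when 1 library was left out. At a minimum of 5 FPKM the count was also 3, where Chek1, Chek2 and Sirt1 were below the minimum and Hipk2, Trp53bp1 and Usp7 passed. Of the other p53 targets, 8 were higher and 3 lower without a filter, 1 was lower with equal sums, and 3 to 6 were lower when 1 library was left out. Of the ATF4 genes, 3 were higher without a filter and 3 to 5 when 1 library was left out. Of the other Bcl2 family genes, 1 was higher without a filter, 1 was higher and 1 lower with equal sums, 1 was lower at a minimum of 5 FPKM, and 1 to 3 were higher and 1 to 2 lower when 1 library was left out. The causes of these shifts were not tested. Bbc3 had the fewest reads among the 9 genes with recovered reads, 553 to 748 per library.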
